A study of Mus musculus with 16 samples.

Results

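The 10 genes of nitrogen disposal described here were followed across 16 mouse livers: Cps1, Otc, Ass1, Asl, Arg1, Nags and Slc25a15 of the urea cycle, and Gls2, Tat and Hal of amino acid breakdown. They were taken as a named list, found on the arrays through the accession of each probe, and make up 10 of the 25790 features tested. Each gene is read from its brightest probe. All 10 genes were well above background on all 16 arrays, so no member was lost to the filter on dim probes.

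The livers came from male ApoE knockout (ApoE KO) mice, which lack apolipoprotein E, with a labelled age of 8 weeks, fed a high-fat diet. One group of 8 carries the label ctrl-inh, a control inhibitor that the labels do not describe further. The other group of 8 was injected with lentivirus that encodes an antisense RNA against the microRNA miR-185 and carries the label miR-185-inh. Livers of both groups were collected after 8 weeks, and the series title places the question at bile acid metabolism and FoxO1. Genotype, sex, diet and age are thus shared by both groups, and no mouse without an inhibitor was analysed here. The samples are numbered, each taken here as 1 mouse, with nothing that states separate animals, so p-values reflect the scatter of these samples alone, part of which may be technical.

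The urea cycle turns toxic ammonia into urea and runs in full in the hepatocytes around the portal vein. N-acetylglutamate, made by NAGS, switches on carbamoyl phosphate synthetase (CPS1), and ornithine transcarbamylase (OTC) joins carbamoyl phosphate to ornithine inside the mitochondrion. Argininosuccinate synthetase (ASS1), argininosuccinate lyase (ASL) and arginase (ARG1) complete the cycle in the cytosol, and the SLC25A15 carrier brings ornithine back into the mitochondrion. Glucagon, glucocorticoids and dietary protein are known to raise the messages of these enzymes together.

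Each array held 59305 spots besides the controls, of which 58.7% to 74.8% were well above background, and no spot was saturated. All ctrl-inh arrays lay on slide 1 with scan 1 and all miR-185-inh arrays on slide 2 with scan 2, so the effect of treatment and that of slide or scan cannot be told apart below. On each slide the arrays sat in rows 1 and 2, 4 to a row, and the ctrl-inh rows differed widely: 1199 features, 4.65% of those tested, were called between them by limma at an adjusted p under 0.05. Beside that, 68.6% to 74.8% of the spots in ctrl-inh row 1 were well above background and 58.7% to 64.2% in row 2. The 8 hepatocyte markers (albumin, transthyretin and others) were well above background on all 16 arrays, and their mean level ran from 5.41 to 5.94 in ctrl-inh and from 5.41 to 5.72 in miR-185-inh livers. In whole liver, fewer cells of a type and less RNA per cell cannot be told apart. A level is the log2 signal of a probe minus the 75th percentile of its array, and a difference is miR-185-inh minus ctrl-inh on that log2 scale unless stated otherwise. Because probes differ in how they bind, the level of one gene is not set against that of another.

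No member passed the test between the groups. Of the 10 genes, 0 were called by limma at an adjusted p under 0.05, where 4.71% of all features were called (1215 of 25790, 895 or 3.47% lower and 320 or 1.24% higher under the inhibitor), and 0 reached an unadjusted p under 0.05. No share of all features under that unadjusted p is set beside it, here or in the member, row and list counts below. Such counts are therefore not read as results. The groups overlapped for all 10, as they did for all but 0.855% of features. The differences ran from -0.12 for Slc25a15 to 0.094 for Gls2, with 4 above zero and 6 below, and the signs of Cps1, Otc, Ass1, Asl and Tat turned under normexp, quantile or detected-probe scaling. Their median was -0.023 against -0.033 over all features, and the median size without its sign was 0.032 against 0.113 over all features and 0.063 over the 2546 features at least as bright as Nags, the dimmest member after Slc25a15. The 95% intervals of all 10 members lay between a 0.800-fold and a 1.24-fold level in miR-185-inh livers.

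Nags supplies the activator of the cycle's entry step. Its level ran from 3.21 to 3.75 with a median of 3.40 in ctrl-inh mice, and from 3.26 to 3.60 with a median of 3.42 in miR-185-inh mice. The miR-185-inh range lay inside the ctrl-inh range, and the means, 3.42 ± 0.19 and 3.40 ± 0.11 (SD, n = 8 each), differed by -0.021 (SE 0.082, limma adjusted p = 0.916).

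Cps1 encodes the entry enzyme. It ran from 4.21 to 4.60 with a median of 4.36 in ctrl-inh and from 4.02 to 4.55 with a median of 4.26 in miR-185-inh mice. The ranges overlapped over most of their length, and 3 of 8 treated mice exceeded the mean of the controls. Means of 4.39 ± 0.13 and 4.31 ± 0.18 (SD, n = 8 each) differed by -0.080 (SE 0.082), with a limma adjusted p of 0.635 and a two-sided exact permutation p of 0.332.

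Otc, the X-linked step whose loss is the commonest inherited urea cycle defect, had the narrowest spread of the 10 in ctrl-inh mice. Its level ran from 3.92 to 4.18 with a median of 4.07 there and from 3.82 to 4.27 with a median of 4.12 in miR-185-inh mice, so the miR-185-inh mice spread out on both sides of the controls. The means were 4.08 ± 0.079 and 4.08 ± 0.16 (SD, n = 8 each), a difference of 0.00024 (SE 0.069, limma adjusted p = 0.999). A second Otc probe, A_51_P126563, printed on 10 spots per array, gave a difference of -0.076 (exact permutation p = 0.440). The SD between those repeated spots, 0.030 to 0.087 per array, was below the SD between mice on that probe, 0.12 in ctrl-inh and 0.24 in miR-185-inh. The 2 Otc probes correlated across mice with r = 0.34 in ctrl-inh and 0.88 in miR-185-inh, so the mouse order within ctrl-inh depended on the probe.

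Slc25a15, the ornithine carrier, showed the largest difference of the list. It ran from -0.67 to 0.15 with a median of -0.12 in ctrl-inh and from -0.43 to -0.084 with a median of -0.26 in miR-185-inh mice. Only 1 of 8 treated mice exceeded the mean of the controls, yet every miR-185-inh value fell inside the ctrl-inh range. The difference of -0.12 (SE 0.098) had a limma adjusted p of 0.553 and an exact permutation p of 0.266, and was smaller than the ctrl-inh SD of 0.26.

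The cytosolic enzymes lay close to zero. Ass1, which joins citrulline to aspartate, ran from 4.71 to 5.29 with a median of 4.997 in ctrl-inh and from 4.83 to 5.19 with a median of 4.96 in miR-185-inh mice. Its means of 5.01 ± 0.17 and 4.98 ± 0.14 (SD, n = 8 each) differed by -0.025 (limma adjusted p = 0.897), and a second probe differed by 0.054 (exact permutation p = 0.475). Those probes correlated with r = 0.96 in ctrl-inh and 0.38 in miR-185-inh mice. Asl, which splits argininosuccinate into arginine and fumarate, ran from 4.07 to 4.46 with a median of 4.19 in ctrl-inh and from 3.998 to 4.48 with a median of 4.28 in miR-185-inh mice, a difference in means of 0.018 (limma adjusted p = 0.931). Arg1, which releases urea, ran from 4.31 to 4.94 with a median of 4.43 in ctrl-inh and from 4.26 to 4.70 with a median of 4.47 in miR-185-inh mice, and differed by -0.038 (limma adjusted p = 0.871). For each of the 3 genes the ranges of the groups overlapped.

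Gls2 is liver glutaminase, which frees ammonia from glutamine beside CPS1. It ran from 4.06 to 4.44 with a median of 4.25 in ctrl-inh and from 4.14 to 4.53 with a median of 4.39 in miR-185-inh mice, with 5 of 8 treated mice above the mean of the controls. Its difference of 0.094 (SE 0.076) was the highest of the list and did not pass the test (limma adjusted p = 0.533, exact permutation p = 0.208). Tat, tyrosine aminotransferase and a classical glucocorticoid-induced liver gene, ran from 4.34 to 5.12 with a median of 4.62 in ctrl-inh and from 4.37 to 4.94 with a median of 4.64 in miR-185-inh mice, a difference of -0.025 (limma adjusted p = 0.933). Hal, the histidase that opens histidine breakdown, had the widest spread of the 10 in ctrl-inh mice: 3.46 to 4.47 with a median of 4.19 in ctrl-inh and 3.80 to 4.40 with a median of 4.14 in miR-185-inh mice. Its difference was 0.045 (limma adjusted p = 0.885). The ctrl-inh SDs of Tat and Hal, 0.27 and 0.32, were several times that of Otc, so what these arrays could detect differed between members.

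**Figure D1:**
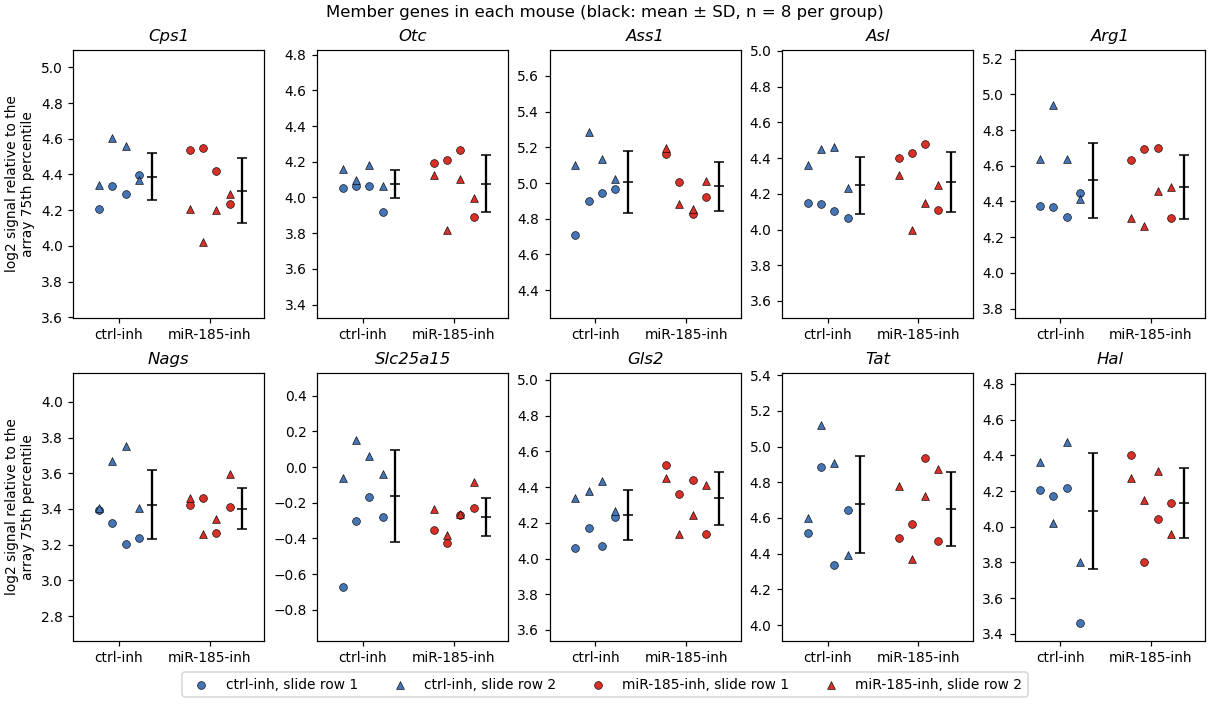
Level of each member gene (y axis, log2 signal relative to the 75th percentile of the array) in each mouse (8 of each group), with circles for slide row 1, triangles for slide row 2 and black bars for the mean ± SD. The groups overlap for all 10 genes, and the ctrl-inh triangles of Ass1, Asl, Nags, Slc25a15 and Gls2 lie above every ctrl-inh circle.

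Array position was examined within each slide. In ctrl-inh livers all 10 members (9 after quantile normalization) were higher on row 2 than on row 1, by 0.10 for Otc to 0.38 for Slc25a15, with a median of 0.24. Over all features the same median was 0.089 and 67.2% were above zero. None of the 10 was called by limma (lowest adjusted p = 0.0749, Asl), and 6 had an unadjusted p under 0.05, a count with no share of all features beside it. For 5 genes every row 2 mouse exceeded every row 1 mouse, against 13.2% of all features. Asl ran from 4.07 to 4.15 on row 1 and from 4.23 to 4.46 on row 2. Ass1 ran from 4.71 to 4.97 and from 5.03 to 5.29. Gls2 ran from 4.06 to 4.23 and from 4.26 to 4.44. Nags and Slc25a15 were the other 2. Rows that do not overlap fix the exact permutation p at 0.0286, its smallest possible value with 4 mice against 4, so that p adds nothing to the separation. For the remaining members the exact permutation p was 0.114 for Cps1, 0.0571 for Otc and Arg1, 0.429 for Tat and 0.543 for Hal.

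Bright probes as a class moved in the same direction. Among the 2546 features at least as bright as Nags 95.1% were higher on row 2 of the ctrl-inh slide, with a median of 0.143, and 26.1% had every row 2 mouse above every row 1 mouse. This brightness class was chosen after the row values were seen. After quantile normalization, which gives every array the same distribution, 50.3% of the class were above zero, while 9 of the 10 members were, with a median of 0.085. With normexp background correction the members' median was 0.200 (10 of 10 above zero), and with the percentile taken over probes detected on every array it was 0.193 (10 of 10).

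In miR-185-inh livers the rows did not shift the list as a whole: 5 members were higher on row 2 and 5 lower, with a median of -0.025, and 0 of all features were called. Cps1 had the lowest value there, -0.25 (SE 0.11, limma adjusted p = 0.423), with row 1 mice from 4.23 to 4.55 and row 2 mice from 4.02 to 4.29. Arg1 differed by -0.21, Asl by -0.18 and Otc by -0.13, and none passed the test.

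**Figure D2:**
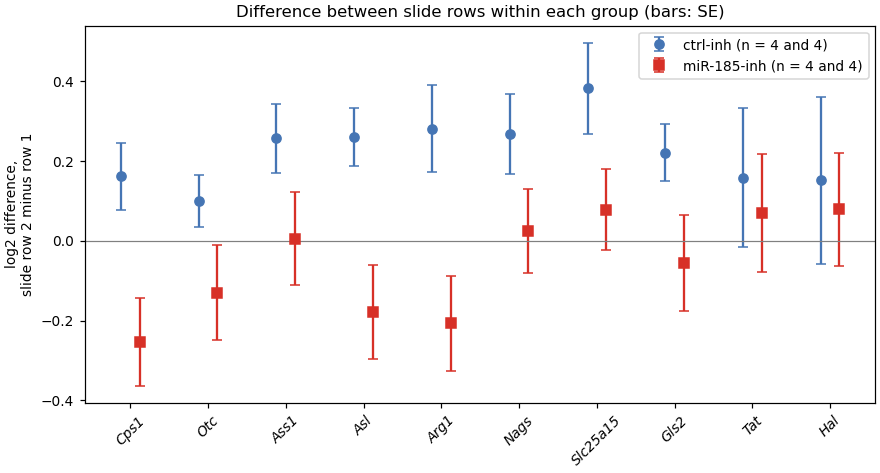
Difference between slide rows within each group (y axis, log2 units, row 2 minus row 1) for each member gene (x axis), with bars for the SE from limma and 4 mice per row. All 10 ctrl-inh points (9 after quantile normalization) lie above zero, from 0.10 to 0.38, while the miR-185-inh points lie on both sides, from -0.25 to 0.079.

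The group difference took a different sign in each row. Row 1 mice alone gave 10 of 10 differences above zero, with a median of 0.108 and values up to 0.24 for Asl and 0.23 for Gls2. Row 2 mice alone gave 9 of 10 below zero, with a median of -0.147 and values down to -0.29 for Cps1 and -0.28 for Arg1. Over all features 51.3% lay above zero in row 1, with a median of 0.0070, and 37.1% in row 2, with a median of -0.070. In neither row was a member called by limma (lowest adjusted p = 0.241 in row 1 and 0.150 in row 2, with 2 and 3 members at an unadjusted p under 0.05), where 0% and 1.81% of all features were called. The difference between the rows was tested as an interaction and was negative for all 10 (8 after quantile normalization), with a median of -0.264 against -0.101 over all features and -0.163 in the bright class, of which 94.1% were negative. It was -0.49 (SE 0.16, limma adjusted p = 0.160) for Arg1, -0.44 (adjusted p = 0.133) for Asl and -0.41 (adjusted p = 0.150) for Cps1, and 0 of 10 passed against 0.372% of all features. After quantile normalization its median was -0.108.

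**Figure D3:**
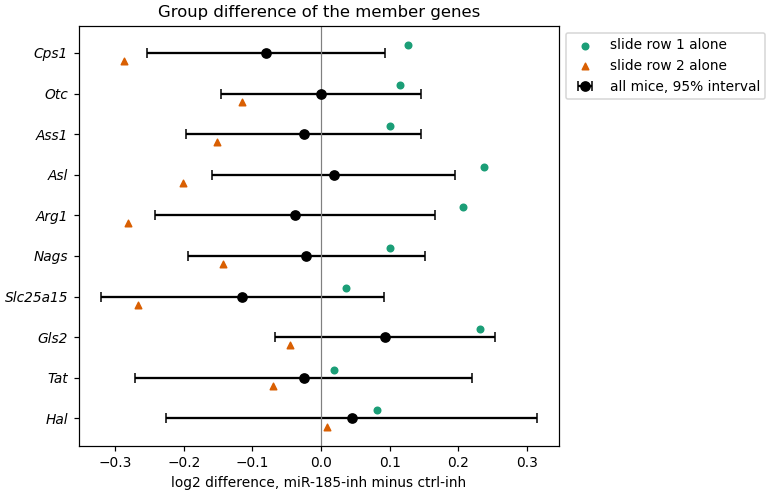
Group difference of each member gene (x axis, log2 units, miR-185-inh minus ctrl-inh) over all 16 mice with its 95% interval (black) and in slide row 1 alone (circles) and row 2 alone (triangles). Every interval spans zero, and with the 75th percentile scaling all 10 row 1 values lie above zero and 9 of 10 row 2 values below it.

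Markers of other cells went both ways between the ctrl-inh rows. The mean level of 7 endothelial markers was 1.96 to 2.13 in the row 1 mice and 1.18 to 1.66 in the row 2 mice, with all 7 lower on row 2 and a median of -0.58. All 7 stellate markers (median -0.41), all 8 macrophage markers (median -0.33) and 3 of 4 lymphocyte markers (median -0.40) were lower too. Hepatocyte markers (8 of 8, median 0.18) and pericentral hepatocyte markers (12 of 12, median 0.24) were higher on row 2, as were 8 of 10 periportal markers (median 0.075). Cholangiocyte markers (5 of 5, median 0.207) and neutrophil markers (7 of 8, median 0.444) were higher on row 2 as well. Under quantile normalization the endothelial median was -0.70 and the hepatocyte median 0.0015, with 4 of 8 above zero. The periportal median turned to -0.046, with 3 of 10 above zero, while the pericentral median was 0.121, with 11 of 12. The part of cell makeup, signal level or slide position in the members' row difference was not tested.

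Single mice led many members at once. In ctrl-inh, mouse 8 was highest for Otc, Asl, Nags, Gls2 and Hal, and mouse 12 was highest for Cps1, Ass1, Arg1, Slc25a15 and Tat, so these row 2 mice held the top value of all 10 genes. Mouse 1, on row 1, was lowest for Cps1, Ass1, Slc25a15 and Gls2. In miR-185-inh, mouse 12 was lowest for 7 genes (Cps1, Otc, Asl, Arg1, Nags, Gls2 and Tat), and mouse 6 was highest for Otc, Asl, Arg1 and Tat. These mice were singled out after their values were seen.

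Within ctrl-inh the members tended to rise and fall together. All 45 pairs correlated positively over the 8 mice, with a median Pearson r of 0.69, and 48.9% reached 0.7. Over all pairs of measured features the median was 0.064 and 6.67% reached 0.7. Within the bright class, however, the median was 0.63 and 39.7% reached 0.7, close to the values of the list. After adjustment over 90 tests of r, 9 pairs passed in ctrl-inh and 3 of them passed by Spearman's rho as well.

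The pairs passing by both measures in ctrl-inh were Asl with Nags, Ass1 with Slc25a15, and Ass1 with Gls2. The genes of these pairs are those whose ctrl-inh rows did not overlap, and the permutation over mice ignored the rows. With values centred on group and slide row over all 16 mice, r was 0.48, 0.47 and 0.62 in that order. None of these passed a permutation test (adjusted p = 0.224, 0.224 and 0.128). Asl and Nags had r = 0.92 (exact permutation adjusted p = 0.0100) and rho = 0.98 (adjusted p = 0.0179), and r was 0.76 without the 2 mice farthest from the Asl median. Ass1 and Slc25a15 had r = 0.96 (adjusted p = 0.0100) and rho = 0.95 (adjusted p = 0.0257), and r was 0.90 without 2 mice. Ass1 and Gls2 had r = 0.87 (adjusted p = 0.0485) and rho = 0.95 (adjusted p = 0.0257), and r was 0.90 without 2 mice. With quantile normalization none of these pairs passed by r (exact permutation adjusted p = 0.359, 0.359 and 0.464). With normexp Ass1 with Slc25a15 passed by r (adjusted p = 0.0190), but Asl with Nags (0.0688) and Ass1 with Gls2 (0.228) did not. With the percentile over detected probes Ass1 with Gls2 did not pass by r (adjusted p = 0.116), and the others did (0.0365 and 0.0335). Hal had a median r of 0.15 with the other members in ctrl-inh. Its one pair past the threshold, Otc with Hal (r = 0.87, rho = 0.62), fell to r = 0.44 without 2 mice on this scale. With the percentile over detected probes that pair had r = 0.95 and rho = 0.95 (exact permutation adjusted p = 0.0335 and 0.0513), and in the authors' table r = 0.89 and rho = 0.86 (adjusted p = 0.0443 and 0.0877).

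In miR-185-inh livers the list was looser: 33 of 45 pairs were positive, the median r was 0.29, and 17.8% reached 0.7. Over all feature pairs the median was 0.038 and 5.56% reached 0.7, whereas in the bright class it was 0.62 and 38.6%. Cps1, Otc, Asl and Arg1 had r from 0.80 to 0.93 among them (0.32 to 0.86 in ctrl-inh). Ass1, Nags, Slc25a15 and Hal had median correlations with the other members between -0.19 and 0.29. Both sets were picked after these correlations were seen, so the contrast between them, or with ctrl-inh, is description only. Gls2 and Tat, in neither set, had medians of 0.62 and 0.34. For Ass1 the values depend on the probe, since its 2 probes correlated with r = 0.38 in this group. Cps1 and Arg1 (r = 0.90, exact permutation adjusted p = 0.0485), Cps1 and Asl (r = 0.88, adjusted p = 0.0489) and Otc and Asl (r = 0.93, adjusted p = 0.0327) passed by r, and of these Otc and Asl passed by rho. The difference in correlation between the groups was not tested.

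**Figure D4:**
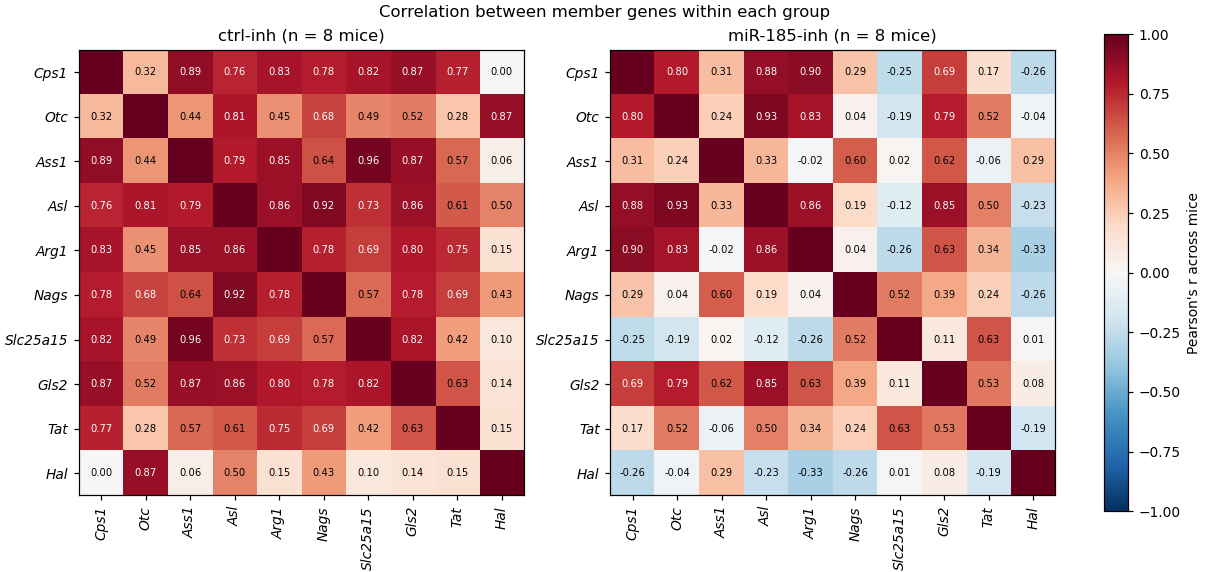
Pearson's r across mice for each pair of member genes (rows and columns) in ctrl-inh (left, n = 8) and miR-185-inh (right, n = 8), from blue at -1 to red at 1. The ctrl-inh panel holds 45 positive pairs and the miR-185-inh panel 33.

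Otc and Asl were the 1 pair past the threshold by r in both groups (ctrl-inh r = 0.81, rho = 0.86, exact permutation adjusted p = 0.0485 and 0.0742; miR-185-inh r = 0.93, rho = 0.98, adjusted p = 0.0327 and 0.0179). The ctrl-inh call was lost with the mean of a gene's probes (r = 0.66, adjusted p = 0.198), the percentile over detected probes (r = 0.64, adjusted p = 0.230), the authors' table (r = 0.79, adjusted p = 0.0571) and quantile normalization (r = -0.15, adjusted p = 0.872). The miR-185-inh call was lost with normexp (r = 0.89, adjusted p = 0.0688), the percentile over detected probes (r = 0.88, adjusted p = 0.0976) and quantile normalization (r = 0.77, adjusted p = 0.372). With values centred on group over all 16 mice, 14 of the 45 member pairs passed a permutation test. With values centred on group and slide row 0 passed, with 13 at an unadjusted p under 0.05. Otc with Asl (r = 0.86) and Cps1 with Gls2 (r = 0.79) were among the nearest, at a shared adjusted p of 0.0523. Asl with Gls2 (r = 0.82) and Cps1 with Arg1 (r = 0.76) had the same adjusted p. The median r over the pairs was 0.54 centred on group and 0.39 centred on group and slide row. A row of 1 group holds 4 mice, too few for a correlation of its own.

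The level of agreement depended on the scaling. The median r in ctrl-inh and miR-185-inh was 0.64 and 0.17 with normexp, 0.64 and 0.088 with the percentile over detected probes, and 0.25 and -0.15 with quantile normalization, where 0 pairs passed in either group (4 and 5 at an unadjusted p under 0.05). In ctrl-inh the members tended to be lower on arrays with a higher median signal: the median r of the 10 members with that signal was -0.73, and of the 40 such tests over both groups and 2 array measures 1 passed, Arg1 (r = -0.95, rho = -0.88, exact permutation adjusted p = 0.0456 and 0.0966). In miR-185-inh the median was -0.47. Each level has a percentile of its own array subtracted, and that percentile and the median signal come from the same spots. A negative r with median signal can thus come from the scaling alone. The tests against median signal, that of Arg1 included, cannot separate a gene from the scaling, and no conclusion is drawn from them. What part the scaling divisor has in the pairwise correlations was not tested.

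**Figure D5:**
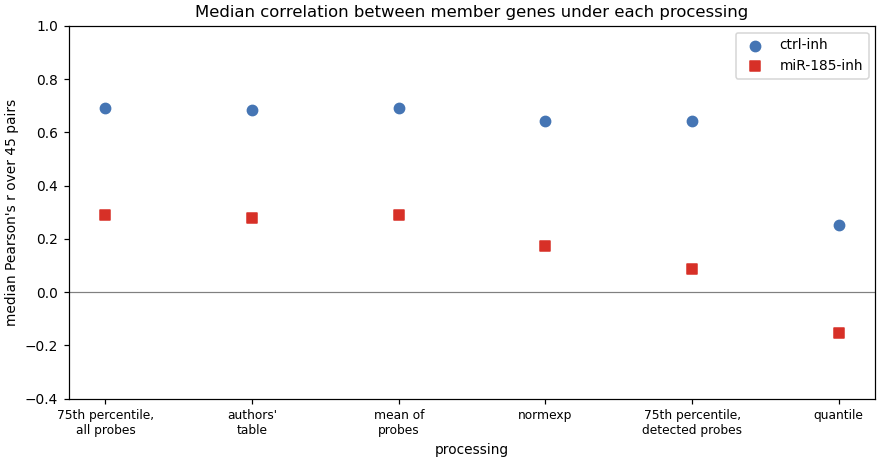
Median Pearson's r over the 45 pairs of member genes (y axis) under 6 ways of processing (x axis), for ctrl-inh (circles) and miR-185-inh (squares). The median lies highest, at 0.69 and 0.29, with the 75th percentile over all probes and equally with the mean of a gene's probes. It lies lowest with quantile normalization, 0.25 and -0.15.

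For each member the 2 named genes with the most similar profile were sought among 22501 features well above background on all arrays, by Pearson's r of group-centred levels over 16 mice, as a description. Asl was nearest to Itih2 (r = 0.97), a secreted protease inhibitor heavy chain, and to Ext1 (0.94). Otc was nearest to Imp3 (0.95) and the UDP-glucuronosyltransferase Ugt2a3 (0.95), and Cps1 to Clp1 (0.94) and the tryptophan-degrading enzyme Tdo2 (0.92). Arg1 lay nearest to the pyrimidine-degrading enzyme Dpyd (0.91) and Ift20 (0.90), and Gls2 to the respiratory subunit gene Ndufb8 (0.92) and the mitochondrial protease gene Lonp1 (0.92). Nags was nearest to Sec22b (0.92) and Slc35b1 (0.90), Slc25a15 to Lce1a2 (0.90) and Srp72 (0.90), Ass1 to Rhox9 (0.90) and Dnah10 (0.89), and Tat to Gm6981 (0.89) and Prmt6 (0.88). Hal had no partner as close, with Olfr281 (0.74) among the nearest. The levels were not centred on slide row, and some values differed between ctrl-inh and miR-185-inh. Slc25a15 had r = 0.99 and 0.50 with Lce1a2 and 0.97 and 0.62 with Srp72, and Nags had 0.98 and 0.70 with Sec22b. The partners named for Cps1, Otc, Asl and Gls2 had r of 0.88 or more in each group. For every member other features outranked its best partner within the list, from 36 features for Arg1, whose best partner was Asl, to 3083 for Hal. None of these genes was called between the groups.

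The surrounding pathway was measured with lists of other genes. Of 21 genes that feed or drain ammonia, ornithine and glutamine, 0 were called, 2 had an unadjusted p under 0.05, and the median difference was 0.045. Sirt5, the mitochondrial deacylase known to act on CPS1, averaged 0.78 ± 0.16 and 0.98 ± 0.11 (SD, n = 8 each; limma difference 0.19, adjusted p = 0.140). The amino acid transporter gene Slc38a4 differed by 0.18 (adjusted p = 0.205) and Odc1, which decarboxylates ornithine, by 0.13 (adjusted p = 0.357). Glul, the pericentral glutamine synthetase that captures ammonia left by the cycle, differed by -0.039.

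Among 51 further enzymes of amino acid breakdown 0 were called, 3 had an unadjusted p under 0.05, and 19 lay above zero, with a median of -0.022. The nearest to the threshold were Mccc2 of leucine breakdown at 0.14 (limma adjusted p = 0.164), Gldc of the glycine cleavage system at -0.26 (adjusted p = 0.227) and Kynu of the kynurenine pathway at -0.19 (adjusted p = 0.235). On the ctrl-inh slide 48 of 51 were higher on row 2 (median 0.162, and 35 of 51 with a median of 0.037 after quantile normalization). In the bright class 95.1% of features were higher there, with a median of 0.143, so on this scale the shift was not particular to these enzymes. After quantile normalization 50.3% of the class were higher, with a median of 0.00074, a smaller share than of the enzymes. The class is not matched to the enzymes in level, since some of them, such as Amt and Acmsd, lie below it. Whether the shift of the enzymes differs from that of features of like level was not tested. On the miR-185-inh slide 10 of 51 were higher on row 2 (median -0.085), against 5 of the 10 members (median -0.025). Against ctrl-inh, 44 of 51 were higher in row 1 mice and 4 of 51 in row 2 mice, where 51.3% and 37.1% of all features were.

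Of 21 regulators 0 were called, with a median of 0.030. An unadjusted p under 0.05 was reached by 5, a count with no share of all features beside it. Foxo1, which the series title names, differed by 0.29 (SE 0.097, limma adjusted p = 0.0969) and the bile acid receptor gene Nr1h4 by 0.21 (adjusted p = 0.116). With normexp Nr1h4 passed (0.33, adjusted p = 0.0199). The glucagon receptor gene Gcgr, the glucocorticoid receptor gene Nr3c1 and the C/EBP gene Cebpa differed by -0.024, 0.026 and 0.24, and none passed.

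Of 16 genes known to respond to glucocorticoids or fasting, 15 were tested and 1 was called, where 4.71% of all features were called. The 1 call is thus given for that gene and not as a result about the list. Fkbp5, a co-chaperone of the glucocorticoid receptor, ran from 1.42 to 2.11 with a median of 1.92 in ctrl-inh and from 2.05 to 3.28 with a median of 2.32 in miR-185-inh mice, so the groups overlapped only slightly. Its difference was 0.56 (SE 0.15), 1.48-fold (limma adjusted p = 0.0412, exact permutation p = 0.000622). The call held in 13 of 31 alternatives, and its adjusted p ran from 0.0163 to 0.267 across them. It was lost with normexp (0.49, adjusted p = 0.0617), with quantile normalization (0.54, adjusted p = 0.0557) and without any of 10 single mice. The other 14 genes of the list were not called and lay on both sides of zero, from -0.95 for Lcn2 to 0.62 for Per1, with Sgk1 at 0.55, Pck1 at 0.031, Tsc22d3 at -0.027 and Igfbp1 at -0.54, and the list median was -0.158. Lcn2 (limma adjusted p = 0.161) passed without miR-185-inh mouse 9 (-1.25, adjusted p = 0.0242). Tat, a member that is itself glucocorticoid-induced, differed by -0.025.

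Promoter windows of 250 bases before to 50 after the start were held for 6 of the 10 members in RefSeq sequence of build GRCm38.p6. Stretches of 4 members from 40 to 11 bases before the start are shown, on the strand of the gene and 5′ to 3′, to set the AT-rich Otc and Hal starts beside the GC-rich Ass1 start. Capitals mark TTTATA, which reads as TATAAA on the opposite strand.
Otc, chrX:10252265-10252294, plus strand: tactctatctctaacaaggctgatctgata
Ass1, chr2:31470230-31470259, plus strand: tccccacgtgtcccaggttcctgccccccc
Tat, chr8:109990396-109990425, plus strand: attggctgaaactatttcaagggtcaggac
Hal, chr10:93488728-93488757, plus strand: gggaacatggtgTTTATAagcagctttcaa
The GC share of these stretches was 36.7% for Otc, 73.3% for Ass1, 43.3% for Tat and 40.0% for Hal. Slc25a15 has 2 annotated starts, giving 7 member windows. Of these 1 held TATAAA on either strand, against 13.6% of all 32851 windows. The C/EBP letters TTGCNNAA stood in the Hal window alone (10.8% of all windows). The FoxO and FoxA core GTAAACA (3.65%), the cAMP response element TGACGTCA (1.79%) and the glucocorticoid receptor motif TGTTCT (19.0%) were in none of the 7 windows.

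Marker lists gave the cell context of the group comparison. Hepatocyte (median -0.12, 8 tested), periportal (0.011, 10), pericentral (-0.018, 12), macrophage (-0.14, 8), endothelial (0.043, 7), stellate (0.13, 7), cholangiocyte (-0.087, 5), small intestine (0.0080, 4), erythroid (-0.14, 2) and lymphocyte markers (-0.028, 4) had 0 genes called by limma, with 1, 1, 2, 0, 0, 1, 0, 1, 0 and 0 genes at an unadjusted p under 0.05. Over all features 4.71% were called. Of 8 neutrophil markers Ltf (-1.97) and Ngp (-1.22) were called lower, with a median of -1.12 and 5 at an unadjusted p under 0.05. Ltf was well above background on 11 of 16 arrays, and 4 of the 8 markers were so on all 16. Of 6 pancreatic acinar markers Cel (-0.48) was called lower, with a median of -0.42 and 5 at an unadjusted p under 0.05. Of those 6 markers 2 lay above zero, and 3 were well above background on all 16 arrays. The part of the marker genes in the members' values was not tested.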

How the data were processed

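Liver RNA of 16 mice was measured on 1-colour Agilent arrays. The deposited scanner files hold a processed intensity per spot, background-subtracted by Feature Extraction 11.5.1.1, per the file headers (the submitters' processing notes name 9.1). The authors' deposited table holds log2 values that equal the log2 processed intensity minus 1 constant per array, with column medians of -1.30 to -1.22. How the authors chose the constant is not stated in the labels or headers. Values were taken as log2 processed intensity minus the 75th percentile of each array without its control spots, outlier spots left out, spots of a probe averaged, and probes kept if 8 or more of the 16 arrays were well above background. Of 55681 probes 26762 were named through RefSeq (GRCm38.p6, names only, since the array grid is mm9). The test was limma 3.58.1 (R 4.3.3), Benjamini-Hochberg over 25790 features, threshold 0.05, two-sided. Single genes had exact permutation tests over all 6435 splits and pairs over 40320 pairings (100000 resamples for 16 mice), two-sided, in Python 3.11.15. Limma was tested on simulated data before use.

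The members, gene lists and tests were chosen with earlier results of these data known. The rule for named genes took all members, the called genes of each list or else the 3 with the smallest p, and the 2 genes most like each member; of the marker lists the called genes are named, and Glul, Gcgr, Nr3c1, Cebpa, Tsc22d3, Pck1, Lcn2, Per1, Sgk1 and Igfbp1 were added after their values were seen. Some genes the rule takes are not reported here. Alternatives were normexp (offset 50, on the median spot signal in place of the planned mean), quantile normalization, a percentile over detected probes, the authors' table, other probe filters, averaging all probes of a gene, trended and robust eBayes, array weights, slide row and column, each mouse left out, and a replicate block over the mouse numbers that both groups share. Same-numbered mice did not deviate together (r from -0.13 to 0.11 over 5 numbers), so the numbers were not taken as pairs. The number of arrays limits the precision.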

Additional observations from a re-analysis of the deposited data

Results flagged for a closer look

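On the second Otc probe, A_51_P126563, ctrl-inh mouse 9 stood at 3.63, below the next value of 3.85, a gap of 0.565 of the whole range of the 8 mice. On the probe used for Otc that mouse was at 4.07, inside its group. It was the 1 value that stood apart in 24 groups of 8 tested. Chance gives about 1 such value in 20 groups, so 1 in 24 is about what chance gives.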

How the results depend on the processing

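No member passed the threshold in any of 312 alternatives (lowest adjusted p = 0.150), and values ran from -0.29 to 0.24, with 54 changes of sign. The cause of these changes was not tested. Row 1 alone gave Cps1 0.13, Ass1 0.10, Arg1 0.21, Nags 0.10, Slc25a15 0.037 and Tat 0.020, and row 2 alone Otc -0.11, Asl -0.20 and Gls2 -0.045. Normexp gave Cps1 0.048, Otc -0.053 and Ass1 0.041, quantile normalization Ass1 0.013 and Tat 0.0019, and the percentile over detected probes Otc -0.025 and Asl -0.0071. Array weights gave Arg1 0.014, Nags 0.023 and Tat 0.013. The mean of a gene's probes gave Otc -0.038 and Ass1 0.014, and the other probe -0.076 and 0.054.

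Leaving out each mouse in turn, the difference ran from -0.11 to -0.039 for Cps1, from -0.027 to 0.037 for Otc, from -0.069 to 0.014 for Ass1, from -0.012 to 0.057 for Asl, from -0.069 to 0.023 for Arg1, from -0.053 to 0.025 for Nags, from -0.19 to -0.070 for Slc25a15, from 0.067 to 0.12 for Gls2, from -0.073 to 0.039 for Tat and from -0.045 to 0.0996 for Hal. Features called ran from 735 to 1582, lowest without miR-185-inh mouse 7 (735) or 6 (768) or ctrl-inh mouse 12 (786) or 11 (794), against 1215. Row 1 alone called 0 and row 2 alone 466 features. Called higher and lower were 558 and 608 with normexp, 396 and 457 with quantile normalization, and 310 and 1506 with the percentile over detected probes, against 320 and 895.

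The replicate block over the 10 mice with shared numbers called 0 features (2598 at an unadjusted p under 0.05), and so did those mice without the block (2876). Both gave Otc -0.027, Asl -0.036 and Hal -0.019, and the pairing changed no call of a member. Among the glucocorticoid and fasting genes 0 in place of 1 were called with normexp, quantile normalization, no filter on dim probes, array weights, row 1 alone, row 2 alone and both fits of shared numbers, and 0 to 1 without single mice. Regulators had 2 called with normexp and 0 to 1 without single mice (1 without miR-185-inh mouse 3).

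Of the 45 member pairs, those past the threshold in ctrl-inh numbered 2 with normexp, 0 with quantile normalization and 3 with the percentile over detected probes, against 9. In miR-185-inh they numbered 0, 0 and 0 (8, 5 and 6 at an unadjusted p under 0.05), and 7 with the mean of a gene's probes, against 3. Centring on slide row as well as group left 0 in place of 14.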
